A study of Homo sapiens with 4 samples.

Results

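The ERK feedback genes are 10 genes that cells switch on when the ERK branch of MAP kinase signalling is active, several of which then act to restrain that same signalling. They comprise the phosphatase genes DUSP4, DUSP5 and DUSP6, the Sprouty genes SPRY2 and SPRY4, the Sprouty-related genes SPRED1 and SPRED2, the transcription factor genes ETV4 and ETV5, and PHLDA1. They were chosen by gene symbol, each symbol had a single row, and they make up 10 of the 60302 genes listed. All 10 reached the mean of 1 FPKM (fragment counts scaled for gene length and library depth) that a gene needed to be tested, as did 13110 of all genes.

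The samples were HMLE cells, a line of human mammary epithelial cells made immortal with telomerase and a viral oncoprotein, so they model 1 cell line. In 2 samples the cells carried an integrated lentiviral hairpin RNA against hnRNPF, called knockdown 1 and 2 here. In 2 samples they carried a non-specific hairpin by the same route, called control 1 and 2. The HNRNPF product, hnRNP F, binds G-rich stretches of RNA and takes part in the choice of splice sites. The labels do not say whether samples of 1 group were separate infections, so the spread behind each p-value may be technical.

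In this pathway, growth factor receptors activate RAS, which starts a chain of kinases from RAF through MEK to ERK. ERK phosphorylates transcription factors, and the genes induced include its own inhibitors, so that a signal is damped after it has begun. In mammary epithelial cells the pathway is driven chiefly by receptors of the EGF family, and cultured cells see their ligands in the growth medium. Transcript levels of feedback genes are often read as a trace of recent ERK output, which was not itself measured here.

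The target of the hairpin was lower in the samples labelled as knockdown. HNRNPF stood at 18.7 and 16.6 FPKM in knockdown 1 and 2, against 154 and 153 FPKM in control 1 and 2. Its log2 fold change was -3.05 (SE 0.0986), with an adjusted p of 0.0251 in limma. That call was lost when control 1 (adjusted p = 0.290) or control 2 (adjusted p = 0.103) was left out. The FPKM values of single-exon genes imply between 77400000 and 85000000 fragments per sample, an estimate, since only 45.3% to 47.8% of low values were whole multiples of the step within 0.05. All 8 mammary epithelial markers were expressed (the basal KRT5, KRT14, KRT17 and TP63, and KRT8, KRT18, EPCAM and CDH1 of luminal or general epithelium), with summed levels of 9116 and 10280 FPKM in knockdown and 7179 and 10720 FPKM in control. KRT5, KRT14 and KRT17 carried most of these sums. Both knockdown samples lay above both controls for 3 of the 8 (KRT17, TP63 and KRT8) and below both for 2 (KRT18 and EPCAM). Of all tested genes 17.5% lay above and 17.1% below. KRT17 was at 1786 and 2170 FPKM in knockdown and 975 and 1573 FPKM in control (adjusted p = 0.833 in limma). KRT18 and EPCAM, with an unadjusted p under 0.05 in limma, were singled out after their values were seen. KRT18 was at 121 and 146 FPKM in knockdown and 172 and 176 FPKM in control (adjusted p = 0.782 in limma). EPCAM was at 38.6 and 38.9 FPKM in knockdown and 56.4 and 45.9 FPKM in control (adjusted p = 0.805 in limma). The part of these markers in the values below was not tested. Of the 7 fibroblast markers 1 reached 1 FPKM (COL1A1), with sums of 12.5 and 13.5 FPKM in knockdown and 11.8 and 10.2 FPKM in control. The 2 endothelial markers listed summed to at most 0.0677 FPKM. Among the 3 immune markers, CD3E was listed at 0 in every sample and PTPRC did not exceed 0.0384 FPKM, while CD68, which epithelial cells also transcribe, lay between 11.2 and 12.2 FPKM.

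No ERK feedback gene passed the adjusted threshold of 0.05 in limma, with 0 of 10 higher and 0 of 10 lower in knockdown, where 0.00763% of all tested genes passed (1 gene, HNRNPF). At an unadjusted p under 0.05 there were also 0 of 10, against 6.08% of all tested genes. With the replicate number as a block in limma, DUSP6 and SPRY2 lay under it. Their unadjusted p were 0.00599 and 0.0213, and their adjusted p 0.289 and 0.328. The share of all tested genes under it in that fit is not given here. Without control 2 the log2 fold changes of DUSP6 and SPRY2 were 0.79 and 0.59, and without control 1 they were 0.16 and 0.26. Without knockdown 1 that of DUSP6 was 0.74, and without knockdown 2 it was 0.21. Both knockdown samples lay above both controls for SPRY2 and SPRED2, and below both for ETV4 and ETV5. These are 4 of 10 genes whose groups did not overlap, where 34.6% of all tested genes did the same. The median log2 fold change of the 10 genes was 0.06, and that of all tested genes was 0.00121. Without control 1 the median of the 10 genes was 0.03, below the 0.06 of all tested genes. Without control 2 it was 0.19, against -0.06 for all tested genes. Since the RNA came from bulk cultures, fewer cells with a transcript and less of it per cell cannot be told apart for any gene below.

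**Figure D1:**
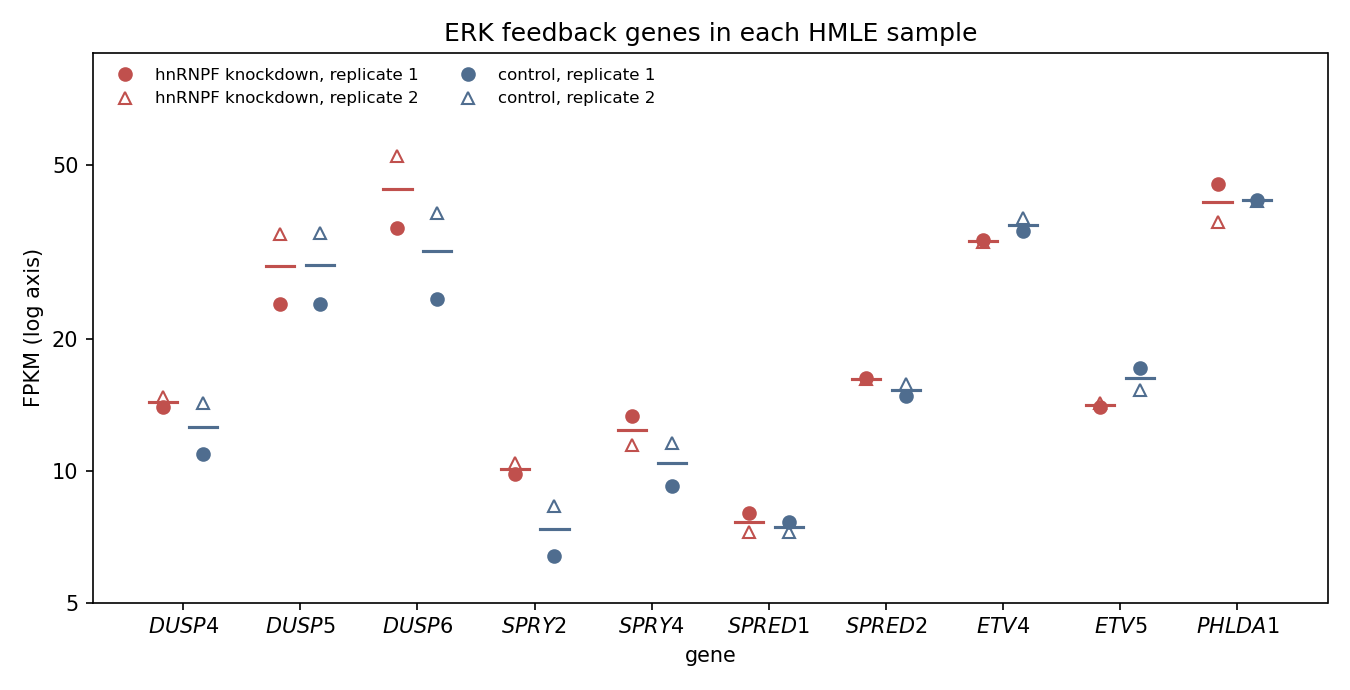
FPKM (log axis) of each ERK feedback gene in the 2 hnRNPF knockdown and the 2 control samples, with circles for replicate 1, triangles for replicate 2 and a bar at each group's mean. DUSP5 shows nearly the same 2 levels in both groups, and SPRY2 and SPRED2 are the genes whose 2 knockdown samples both sit above both controls.

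The short stretches shown here come from the windows of 250 bases before the start sites of RefSeq (GRCh38.p14) and are given because they hold the only matches of the motifs searched. Such windows were had for 6 of the 10 genes (DUSP6, SPRY2, SPRY4, SPRED1, SPRED2 and PHLDA1). Capitals mark the match, read on the gene's strand. The 3 genes all lie on the minus strand, DUSP6 at chr12:89352546-89352575, SPRY4 at chr5:142324299-142324327 and PHLDA1 at chr12:76031806-76031835.
DUSP6: cggcaacagcccCTTCCGcagcacgctcat
PHLDA1: ggggaacgagcgCGGAAGcaagtgggcggc
SPRY4: tcttcggagccgTGACGgactgaattccc

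The ETS core CGGAAG, the sequence around which ETS family factors such as ETV4 and ETV5 bind, was found in DUSP6 (on the opposite strand, 62 bases before the start site) and in PHLDA1 (47 bases before it). It was present in 16.5% of all 35116 windows of that length. The CRE core TGACG, bound by CREB and ATF factors, was found 68 bases before the start site of SPRY4 and in 21.2% of all windows. The full ETS site CCGGAAGT (3.42% of all windows), the CIC octamer TGAATGAA (1.40%), the AP-1 site TGANTCA (6.57%) and the full CRE TGACGTCA (1.65%) matched none of the 6 windows on either strand. The ETS core lies within the full ETS site and the CRE core within the full CRE. None of this shows binding. For each of these 3 genes some part of the window also lies within a transcript of the gene annotated in GENCODE 29. The start site used may therefore not be the gene's main one. Whether the printed stretch itself does was not checked.

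Levels can be compared between the 10 genes in FPKM, since the unit is scaled for length. PHLDA1 was the most abundant with a mean of 41.3 FPKM over the 4 samples, followed by DUSP6 (37.9 FPKM), ETV4 (35.0 FPKM) and DUSP5 (29.5 FPKM). These 4 genes stayed at 24.0 FPKM or more in every sample. The other 6 stayed at 17.2 FPKM or less in every sample, in the order SPRED2 (15.8 FPKM), ETV5 (15.2 FPKM), DUSP4 (13.5 FPKM), SPRY4 (11.4 FPKM), SPRY2 (8.73 FPKM) and SPRED1 (7.54 FPKM). Of the 9 neighbouring pairs in this order, 8 overlapped in their sample values, the exception being DUSP5 and SPRED2. PHLDA1 exceeded 87.8% of all tested genes in mean level and SPRED1 exceeded 42.3%, so that all 10 transcripts were well within the measured range.

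The DUSP genes encode dual-specificity phosphatases that remove the activating phosphates from MAP kinases. DUSP6 is a cytoplasmic enzyme that acts chiefly on ERK. It had the largest log2 fold change of the 10 genes, with 35.8 and 52.4 FPKM in knockdown 1 and 2, against 24.6 and 38.8 FPKM in control 1 and 2. Knockdown 2 was highest and control 1 lowest, while knockdown 1 lay below control 2, so the groups overlapped. The ratio of means was 1.39, the log2 fold change 0.47 (95% interval -0.29 to 1.24) and the adjusted p 0.916 in limma. This log2 fold change was 0.16 without control 1, 0.79 without control 2, 0.74 without knockdown 1 and 0.21 without knockdown 2. DUSP6 lies on chromosome 12, 89741009 to 89747048, minus strand (GRCh37, as are all gene positions that follow).

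DUSP5, which encodes a nuclear phosphatase that dephosphorylates ERK and holds it in the nucleus, was at 24.1 and 34.8 FPKM in knockdown 1 and 2, and at 24.0 and 35.0 FPKM in control 1 and 2. In each group the sample numbered 2 was the higher, and the values of the groups coincided. The group difference was a log2 fold change of -0.00204 with a 95% interval of -0.69 to 0.69. With this spread, changes of up to that size in either direction were not detectable even without adjustment. The interval is not adjusted over all tested genes, so larger changes could also go uncalled at the adjusted threshold. The gene lies on chromosome 10, 112257596 to 112271302, plus strand. DUSP4, for another nuclear phosphatase, with a wider range of MAP kinase substrates, was at 14.0 and 14.7 FPKM in knockdown 1 and 2 and at 10.9 and 14.3 FPKM in control 1 and 2. Control 1 stood below the other 3 samples, which lay close together. Its log2 fold change was 0.19 (95% interval -0.24 to 0.62, adjusted p = 0.951 in limma) and was 0.01 without control 1 and 0.37 without control 2. DUSP4 lies on chromosome 8, 29190581 to 29208185, minus strand.

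Sprouty proteins bind at the membrane and block the step from receptors to RAS and RAF. SPRY2 had the smallest p of the 10 genes. It was at 9.82 and 10.4 FPKM in knockdown 1 and 2, against 6.40 and 8.30 FPKM in control 1 and 2. Both knockdown samples were above both controls, and they differed from each other by less than the controls did. The ratio of means was 1.38 and the log2 fold change 0.42, with a 95% interval of -0.01 to 0.85. The unadjusted p of 0.0541 became 0.828 once adjusted over all tested genes in limma, of which 6.51% had a smaller p. The log2 fold change was 0.26 without control 1 and 0.59 without control 2. SPRY2 lies on chromosome 13, 80910111 to 80915086, minus strand.

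SPRY4, a second Sprouty gene, was at 13.4 and 11.4 FPKM in knockdown 1 and 2 and at 9.24 and 11.6 FPKM in control 1 and 2. Knockdown 2 lay just below control 2, so the groups overlapped. The log2 fold change was 0.24 (95% interval -0.20 to 0.67, adjusted p = 0.918 in limma) and was 0.09 without control 1, 0.38 without control 2 and 0.13 without knockdown 1. SPRY4 lies on chromosome 5, 141689992 to 141706020, minus strand, and the genes listed as overlapping it did not exceed 0.766 FPKM.

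SPRED proteins are relatives of Sprouty that bind neurofibromin, a RAS inactivator, and bring it to the membrane. SPRED1 was at 8.004 and 7.25 FPKM in knockdown 1 and 2 and at 7.64 and 7.26 FPKM in control 1 and 2. All 4 values lay within 0.13 of each other on the log2 scale, the narrowest range of the 10 genes. SPRED2 was at 16.2 FPKM in both knockdown samples and at 14.8 and 15.8 FPKM in control 1 and 2. The knockdown samples were above both controls by a small margin. The log2 fold changes were 0.03 for SPRED1 (95% interval -0.32 to 0.38) and 0.08 for SPRED2 (95% interval -0.20 to 0.36), with adjusted p of 0.999 for each in limma. That of SPRED2 was 0.04 without control 1 and 0.13 without control 2. SPRED1 lies on chromosome 15, 38544527 to 38649450, plus strand, and SPRED2 on chromosome 2, 65537985 to 65659771, minus strand.

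**Figure D2:**
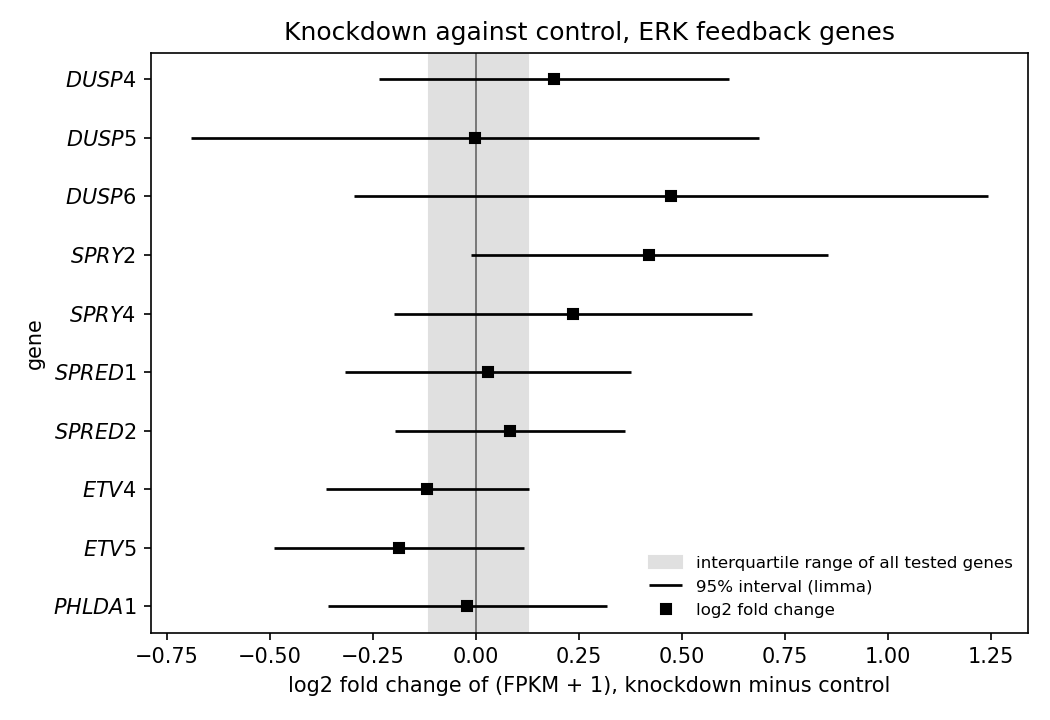
Log2 fold change of (FPKM + 1), knockdown minus control, of each ERK feedback gene (squares) with its 95% interval from limma (lines), beside the interquartile range of all tested genes (grey band). Every interval includes 0; the widest belong to DUSP6 (-0.29 to 1.24) and DUSP5 (-0.69 to 0.69).

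ETV4 and ETV5 encode ETS transcription factors of the PEA3 group, which ERK signalling induces and which drive branching growth in several epithelia. ETV4 was at 33.7 and 33.3 FPKM in knockdown 1 and 2, against 35.2 and 37.7 FPKM in control 1 and 2. ETV5 was at 14.0 and 14.3 FPKM in knockdown 1 and 2, against 17.2 and 15.3 FPKM in control 1 and 2. For each gene the controls were the 2 higher samples, the opposite side from SPRY2 and SPRED2. The log2 fold changes were -0.12 for ETV4 (95% interval -0.36 to 0.13, adjusted p = 0.944) and -0.19 for ETV5 (95% interval -0.49 to 0.12, adjusted p = 0.916), in limma. That of ETV4 was -0.07 without control 2, and that of ETV5 was -0.11 without control 1. Groups were separated this way, with knockdown below, for 17.1% of all tested genes and, with knockdown above, for 17.5%.

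ETV4 lies on chromosome 17, 41605212 to 41656988, minus strand. It overlaps DHX8, an RNA helicase gene on the opposite strand, which was at 19.7 and 20.2 FPKM in knockdown and 18.6 and 20.5 FPKM in control. The libraries were stranded per the labels, but whether strand was used in counting is not given in the sources used here, so some of the reads of ETV4 and DHX8 may not have been told apart. ETV5 lies on chromosome 3, 185764097 to 185828107, minus strand, and the overlapping DGKG did not exceed 0.842 FPKM.

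PHLDA1 encodes a pleckstrin homology-like protein that ERK signalling induces and that can inhibit the activity of ERBB receptors. It was at 45.2 and 37.0 FPKM in knockdown 1 and 2 and at 41.6 and 41.3 FPKM in control 1 and 2. The knockdown samples lay on either side of the controls, which nearly coincided. The log2 fold change was -0.02 (95% interval -0.36 to 0.32, adjusted p = 0.999 in limma). PHLDA1 lies on chromosome 12, 76419227 to 76427712, minus strand.

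**Figure D3:**
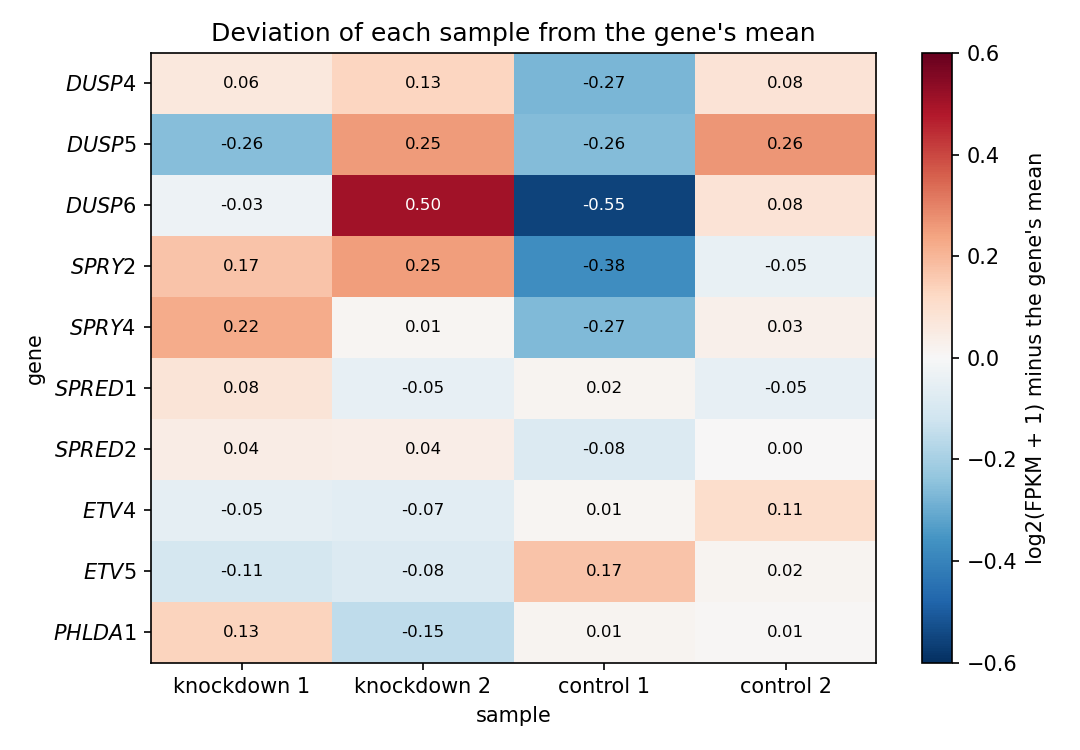
Deviation of each sample from the gene's own mean on the log2(FPKM + 1) scale, for the 2 knockdown and the 2 control samples. The lowest value shown is -0.55, for DUSP6 in control 1, and the SPRED, ETV and PHLDA1 rows vary little.

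Across the samples, control 1 held the lowest value of 6 of the 10 genes (DUSP4, DUSP5, DUSP6, SPRY2, SPRY4 and SPRED2) and the highest of ETV5 alone. The share of all tested genes that were lowest in control 1 is not given here, so this count has no background. Averaged over the 10 genes, the deviation from each gene's mean was 0.03 and 0.08 on the log2 scale in knockdown 1 and 2, and -0.16 and 0.05 in control 1 and 2. On this average control 1 was the lowest sample, with DUSP6 (-0.55) and SPRY2 (-0.375) farthest down in it. SPRED1, ETV4, ETV5 and PHLDA1 were above their own means in control 1. The group difference exceeded the mean difference between samples of 1 group for 4 of the 10 genes, namely SPRY2, SPRED2, ETV4 and ETV5. With 2 samples per group this is the same condition as groups that do not overlap, met by 34.6% of all tested genes. It is therefore no further result. The smallest Euclidean distances between centred log2 profiles over the 4 samples were those of SPRED1 and PHLDA1 (0.129), SPRED1 and SPRED2 (0.1475) and ETV4 and ETV5 (0.192). The distance is not scaled for how much a gene varies. Genes that vary little thus come out as close even where their samples differ in order. The largest distance was that of DUSP6 and ETV5 (0.936). Among 59 tested genes of the other pathway lists, the mean profile of the 10 genes was approached most closely by ETV3, an ETS repressor (distance 0.0485), SHC1, a receptor adaptor (0.0657), and ERF, another ETS repressor (0.0970). With 4 samples these distances are descriptions.

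The transcripts also differed in the G-rich sequence that hnRNP F can bind. In the longest coding transcript of each gene in GENCODE 29, runs of at least 3 G occurred 13.3 times per kb at the median of the 10 genes and 12.5 times per kb at the median of 11424 matched tested genes. ETV4 had the densest runs with 23.5 per kb, more than 92.3% of matched tested genes, and SPRED1 the sparsest with 7.97 per kb, more than 19.5%. A pattern of 4 such runs with loops of at most 7 bases, which can fold into a G-quadruplex, was found in DUSP4, DUSP6, ETV5 and PHLDA1. That is 4 of 10 genes, against 28.3% of matched tested genes, and their log2 fold changes ran from -0.19 for ETV5 to 0.47 for DUSP6. Introns, where splicing regulators often bind, were not searched.

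The other genes of the pathway were likewise without a call in limma, with 0 higher and 0 lower in each of 5 lists. The RAS-RAF-MEK-ERK cascade had 16 of 16 genes tested and a median log2 fold change of -0.00839. Its most abundant members were SHC1 (101 and 104 FPKM in knockdown, 92.7 and 102 FPKM in control), MAP2K2, which encodes MEK2 (60.8 and 58.4 FPKM in knockdown, 69.5 and 68.1 FPKM in control), and the phosphatase gene PTPN11 (61.9 and 56.9 FPKM in knockdown, 61.8 and 59.6 FPKM in control). Of the 16 cascade genes, 1 had an unadjusted p under 0.05, as did 6.08% of all tested genes. This was HRAS, singled out after its values were seen. No other listed gene overlaps its locus. HRAS was at 65.1 and 65.0 FPKM in knockdown 1 and 2, against 41.1 and 42.6 FPKM in control 1 and 2. Its log2 fold change of 0.62 (95% interval 0.40 to 0.85) had an adjusted p of 0.431 in limma.

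The paralogs of the feedback genes had 11 of 14 genes tested and a median log2 fold change of 0.11. DUSP7, for a cytoplasmic ERK phosphatase, was at 71.6 and 71.7 FPKM in knockdown 1 and 2 and at 52.2 and 70.4 FPKM in control 1 and 2. PHLDA2 was at 54.2 and 48.8 FPKM in knockdown and 38.7 and 55.0 FPKM in control, and DUSP14 at 37.4 and 39.6 FPKM in knockdown and 38.5 and 42.7 FPKM in control. SPRY1 was near the filter at a mean of 1.16 FPKM, and SPRY3, DUSP8 and DUSP9 were below it, so SPRY2 and SPRY4 were the main Sprouty transcripts of these cells.

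The brakes on RAS and RAF had 8 of 8 genes tested and a median of 0.06. PEBP1, which encodes an inhibitor of RAF, was at 72.9 and 77.2 FPKM in knockdown and 81.7 and 86.8 FPKM in control. ERRFI1, for an inhibitor of the EGF receptor, was at 38.5 and 49.4 FPKM in knockdown and 39.1 and 45.5 FPKM in control, and RASA1, a RAS GTPase-activating protein gene, was at 22.1 and 20.6 FPKM in knockdown and 21.0 and 20.4 FPKM in control. The ETS factors and CIC, with 11 of 11 genes tested, had a median of -0.01 and a range of -0.09 to 0.14. CIC, a repressor that holds ETV4 and ETV5 off until ERK signals, was at 24.7 and 25.7 FPKM in knockdown and 25.5 and 26.6 FPKM in control. CIC was named for its role and not for its level. The most abundant of this list were ELK3 (40.3 and 40.9 FPKM in knockdown, 40.7 and 44.8 FPKM in control), ETS1 (31.7 and 30.8 FPKM in knockdown, 32.9 and 33.9 FPKM in control) and ERF (30.4 and 32.5 FPKM in knockdown, 28.6 and 33.7 FPKM in control).

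The other ERK-induced genes had 13 of 15 genes tested and a median of 0.07. Both knockdown samples were above both controls for 4 genes and below for 0, where 17.5% and 17.1% of all tested genes lay above and below. Counts above and below were 3 and 4 in the cascade and 3 and 0 among the paralogs. They were 0 and 1 among the brakes, and 1 and 1 among the ETS factors and CIC. AREG, which encodes the EGF receptor ligand amphiregulin, was at 290 and 320 FPKM in knockdown 1 and 2 and at 227 and 304 FPKM in control 1 and 2. IER3 was at 148 and 188 FPKM in knockdown and 148 and 209 FPKM in control, and the survival gene MCL1 at 98.5 and 111 FPKM in knockdown and 79.6 and 100.4 FPKM in control. For AREG and MCL1 control 1 was the lowest sample. EREG, for the ligand epiregulin, was the 1 gene of this list at an unadjusted p under 0.05, with 17.5 and 14.8 FPKM in knockdown and 10.6 and 12.5 FPKM in control (adjusted p = 0.798 in limma); it was singled out after its values were seen.

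**Figure D4:**
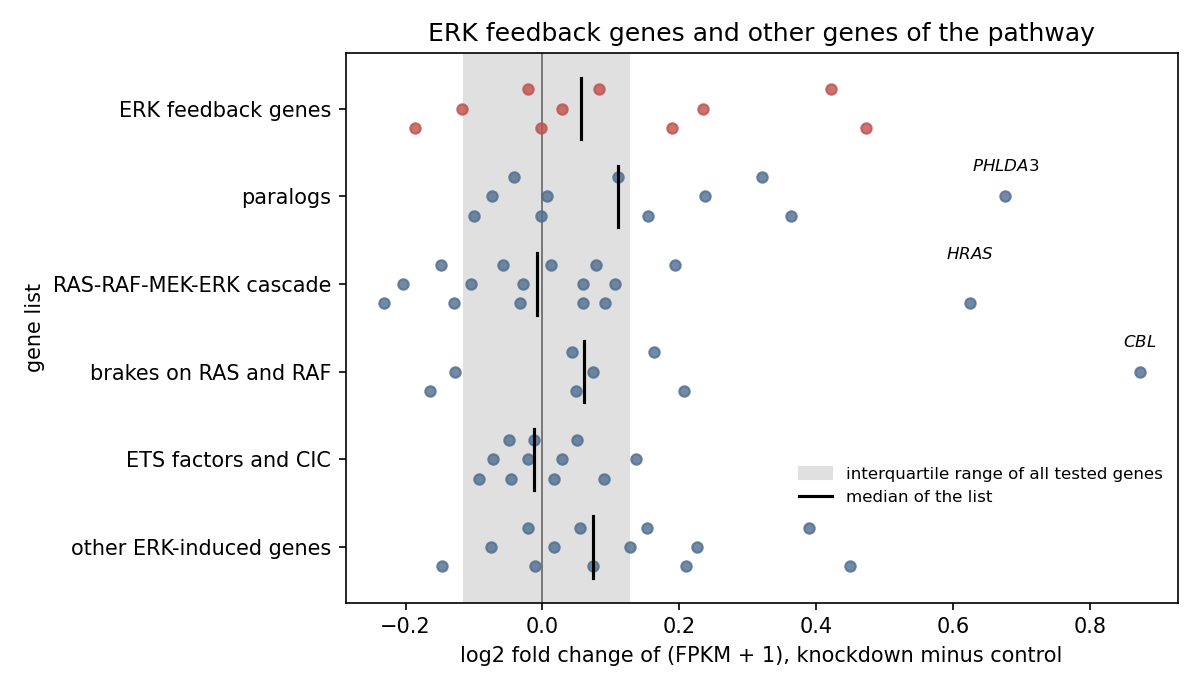
Log2 fold change of (FPKM + 1), knockdown minus control, of each tested gene in 6 lists, with the list's median as a black bar and the interquartile range of all tested genes in grey. The ERK feedback genes run from -0.19 to 0.47, and no gene shown passed the adjusted threshold.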

How the data were processed

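The authors deposited 1 FPKM value per gene and sample, as the file header names it, for stranded paired-end libraries of polyA-selected RNA. STAR 2.5.3a, Cuffdiff 2.2.1 and GRCh37 are named without roles in the submitters' processing notes; the annotation release and the use of strand are not given there. Groups came from the sample titles. Depth is not listed and whole reads were not recovered, so no count test was run. Genes averaging 1 FPKM or more were compared as log2(FPKM + 1) with limma 3.58.1 in R 4.3.3 (empirical Bayes with an intensity trend, no covariate, two-sided, Benjamini-Hochberg adjustment over all tested genes). A fold change on this scale understates changes of low genes. An exact permutation test of 2 against 2 samples cannot reach 0.05. The fit was also run on simulated data that held no effect of replicate number, and no support is drawn from that run. The members and lists were chosen with earlier results of these data known. Named are HNRNPF, all members and, per other list, the 3 genes of highest mean; CIC, HRAS, EREG, the low paralogs, KRT18, EPCAM and the genes of the closing section were named besides. Promoter windows came from RefSeq (GRCh38.p14) and transcripts from GENCODE 29, used for no position in the table. Where a member had several RefSeq start sites, the first that opens a coding GENCODE transcript was used. Python 3.11.15 was used for sequences and figures.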

Additional observations from a re-analysis of the deposited data

How the results depend on the processing

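No ERK feedback gene passed under any of 12 alternatives (lowest adjusted p = 0.289, DUSP6 with the replicate block), and 114 of 120 values kept their direction. Changing the filter, dropping the trend or adding the replicate block leaves every log2 fold change as it was. Values under those alternatives could therefore not change direction. The log2 fold change of DUSP5 was 0.0232 with quantile normalization. When 1 sample was left out it ran from -0.265 (without control 1) to 0.261 (without control 2), with 0.254 without knockdown 1. That of SPRED1 ran from -0.0336 (without knockdown 1) to 0.0917 (without knockdown 2), with -0.00362 without control 2. That of PHLDA1 ran from -0.162 (without knockdown 1) to 0.121 (without knockdown 2). Leaving out 1 sample gave medians of the 10 genes from 0.0253 (without control 1) to 0.193 (without control 2) and log2 fold changes of HNRNPF from -3.13 to -2.98. HNRNPF kept -3.05 but lost its call with no filter (adjusted p = 0.259), without the trend (0.0995) and with the replicate block (0.164), leaving 0 genes lower and 0 higher. Leaving out 1 sample gave 0 to 1 lower and 0 to 1 higher. A lone sample was assumed to vary like the other group. The labels do not say that replicate numbers pair the samples, and their deviations from the group means correlated at 0.39 over 13110 genes. With the replicate block 2 of the 10 genes had an unadjusted p under 0.05 in limma, DUSP6 (0.00599) and SPRY2 (0.0213, adjusted p = 0.328). The share of all tested genes under 0.05 in that fit is not given here, so this count has no background. The cause of the differences between alternatives was not tested. The spread between 2 samples limits what could be detected, most for DUSP5 and DUSP6.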

Other observations

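A few genes around the ERK pathway, picked after their values were seen, had 1 sample far from the rest or followed the replicate number. CBL, which encodes a ubiquitin ligase for activated receptors, was at 11.96 and 9.70 FPKM in knockdown 1 and 2, against 2.34 and 11.4 FPKM in control 1 and 2. PHLDA3, a p53-induced inhibitor of AKT, was at 14.9 and 31.2 FPKM in knockdown 1 and 2, against 13.3 and 13.1 FPKM in control 1 and 2. The immediate early gene FOS was at 6.60 and 12.5 FPKM in knockdown 1 and 2, against 4.12 and 15.7 FPKM in control 1 and 2, so that the samples numbered 2 were the higher in both groups. EGR1 had the same order, with 30.03 and 61.5 FPKM in knockdown and 39.98 and 57.0 FPKM in control.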
